A study of Rattus norvegicus with 9 samples.

Results

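The genes of renal gluconeogenesis and ammonia production were taken as a named set of 9: Pck1, Pck2, G6pc, Fbp1, Pc, Slc37a4, Glud1, Got1 and Mdh1. Of these, 7 had a row in the expression table and are described here, out of 18420 gene rows in all; G6pc and Glud1 were not matched by symbol or synonym and are not analysed here. All 7 passed the minimum mean of 10 used for testing, as did 13647 genes of the table. The samples were 9 kidney cortex libraries from diabetic ZDF fa/fa rats, a strain homozygous for a leptin receptor mutation, and every library carried the treatment label Medical Bypass. There was therefore 1 group, and no treated, untreated or lean animal stands beside it. The labels give no drug, dose, age or sex, and do not say whether the replicates were separate animals, so p-values measure only the spread between these libraries, which may be technical. The study's title sets this arm against gastric bypass in experimental diabetic kidney disease. With a single group the data allow levels, their spread, and relations across libraries, not an effect of treatment.

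Gluconeogenesis makes glucose from lactate, glycerol and amino acids, and the proximal tubule is the main site of it outside the liver. Pyruvate carboxylase (Pc) makes oxaloacetate in mitochondria. The carbon leaves as malate or aspartate, through malate dehydrogenase (Mdh1 in the cytosol) and aspartate aminotransferase (Got1 in the cytosol). Phosphoenolpyruvate carboxykinase, cytosolic as Pck1 and mitochondrial as Pck2, turns oxaloacetate into phosphoenolpyruvate. Fructose-1,6-bisphosphatase (Fbp1) carries out the next irreversible step, and the glucose-6-phosphate transporter (Slc37a4) feeds the last one in the endoplasmic reticulum. In the kidney the pathway is tied to acid-base balance, because glutamine that gives up its nitrogen as ammonia leaves a carbon skeleton that Pck1 can draw on.

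Levels are given as normalised reads, the authors' read counts per gene divided by a size factor for each library and not corrected for gene length, so levels are compared across libraries and not between genes. The libraries held 10757440 to 43071223 reads in genes, with a mean of 26045365 ± 9955332 (SD, n = 9). Reads aligned to more than 1 place, called the multi-aligned share below, made up 17.2% ± 2.33 of counted reads (SD, n = 9). That share was highest in replicate 5 at 22.1% and next in replicate 1 at 19.2%, and it lay between 14.9% and 18.4% in the others, with Wilson 95% intervals no wider than 0.0158 percentage points on either side that cover counting error only. Replicate 1 also stood apart in its cell markers. The summed level of 9 proximal tubule markers of the S1 and S2 segments was 151974 normalised reads in replicate 1 and 192939 to 304028 in the others, and replicate 1 was the lowest library for 8 of the 9. The 5 collecting duct markers summed to 35633 in replicate 1 and to 16128 to 21702 in the others, with replicate 1 highest for 5 of 5. The 3 thick ascending limb markers summed to 104811 in replicate 1, against 56412 to 84889 elsewhere, with replicate 1 highest for 2 of the 3. Slc12a1 was highest in replicate 2, at 21695 against 20016 in replicate 1. The 6 markers of the S3 segment did not share the order of the S1 and S2 markers. They summed to 52369.5 in replicate 1 and to 34697 to 78374 in the others, and replicate 1 was lowest for 0 of the 6. None of the markers present was at 0 in all libraries. Of 6 liver genes, Fgb averaged 577.3 and Serpina1 288.1 normalised reads, Alb 12.0 and Apoa1 6.22, and Ttr and Cps1 0.591 and 0.190. In bulk tissue, fewer cells of a type and less RNA per cell cannot be told apart.

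The promoters of Pck1 and Pck2 are shown first, because these genes for the same reaction in different compartments ordered the libraries differently. Both sequences come from RefSeq on build GRCr8, run from 250 bases before the start to 50 after it, and are written 5′ to 3′. The capitals in Pck1 mark TTACGTCA, the cAMP response element long studied in this promoter. The capitals in Pck2 mark a match to TGATGNAA, read on the opposite strand, the composite element bound by ATF4 with C/EBP factors.
Pck1, chr3:182348322-182348621, + strand: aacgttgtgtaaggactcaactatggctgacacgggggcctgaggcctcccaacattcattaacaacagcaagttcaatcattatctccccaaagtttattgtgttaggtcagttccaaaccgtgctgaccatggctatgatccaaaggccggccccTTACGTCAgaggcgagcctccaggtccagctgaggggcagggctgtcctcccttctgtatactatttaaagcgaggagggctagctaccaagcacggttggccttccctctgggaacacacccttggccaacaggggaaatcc
Pck2, chr15:32997603-32997902, + strand: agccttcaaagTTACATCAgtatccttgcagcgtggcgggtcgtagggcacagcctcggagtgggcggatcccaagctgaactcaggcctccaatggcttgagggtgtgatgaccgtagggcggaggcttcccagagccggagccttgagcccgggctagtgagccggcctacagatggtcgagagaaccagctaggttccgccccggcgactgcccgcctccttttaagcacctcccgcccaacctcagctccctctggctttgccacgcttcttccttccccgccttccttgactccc
The Pck1 element began 93 bases before the start, and TTACGTCA occurred on either strand in 0.807% of 33469 promoters of this length. The Pck2 match began 239 bases before the start, and TGATGNAA occurred on either strand in 3.98% of them. Of the 6 measured genes of the set with a promoter entry, TTACGTCA was found in 1 (Pck1), the palindrome TGACGTCA in 0, and TGATGNAA in 2, Pck2 and Got1. TGACGTCA was present in 1.83% of all promoters. These are matches of letters and not measured binding.

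Pck1, which catalyses the step usually taken as rate-limiting for the pathway, was read in large numbers in all libraries, with 98345 to 518192 reads behind each value. Its level was 122789 normalised reads in the lowest library, 232517 at the median and 296138 in the highest, a mean of 229757 ± 54281 (SD, n = 9). Replicate 1 was the low one, and replicates 7, 8 and 9 were the highest. The range spanned 2.41-fold with replicate 1 and 1.51-fold without it.

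Fbp1, the bisphosphatase that opposes phosphofructokinase, had its lowest level of 14146 normalised reads in replicate 1, a median of 24803, and its highest level of 31728 in replicate 8. It averaged 24895 ± 5271 (SD, n = 9). As with Pck1, replicate 1 lay below all other libraries, and the 2.24-fold range fell to 1.45-fold without it. Within each library the ratio of Pck1 to Fbp1, a comparison added after the data were seen, ran from 8.20 to 11.6 with a mean of 9.24 ± 1.25 (SD, n = 9). That ratio spanned 1.42-fold, less than the span of either gene's level. Most of this contrast rests on replicate 1, which was at neither end of the ratio. Without it the levels spanned 1.51-fold for Pck1 and 1.45-fold for Fbp1. The ratio was highest in replicates 6 and 9.

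Pc, which supplies oxaloacetate, ranged from 10125 normalised reads in replicate 1 through a median of 15931 to 19005 in replicate 8, averaging 14766 ± 3263 (SD, n = 9). Slc37a4, which carries glucose-6-phosphate into the endoplasmic reticulum, ranged from 4830 in replicate 1 through a median of 6946 to 9813 in replicate 7, averaging 6960 ± 1753 (SD, n = 9). For both, replicate 9 was nearly as low as replicate 1, at 10593 for Pc and 5207 for Slc37a4, so the low library did not stand alone as it did for Pck1. In replicate 9 Pck1 was instead among the 3 highest, at 274482. The ratio of Pc to Slc37a4, also added after the data were seen, was the tightest of the 5 within-library ratios computed. It ran from 1.90 to 2.44 with a mean of 2.14 ± 0.161 (SD, n = 9).

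**Figure D1:**
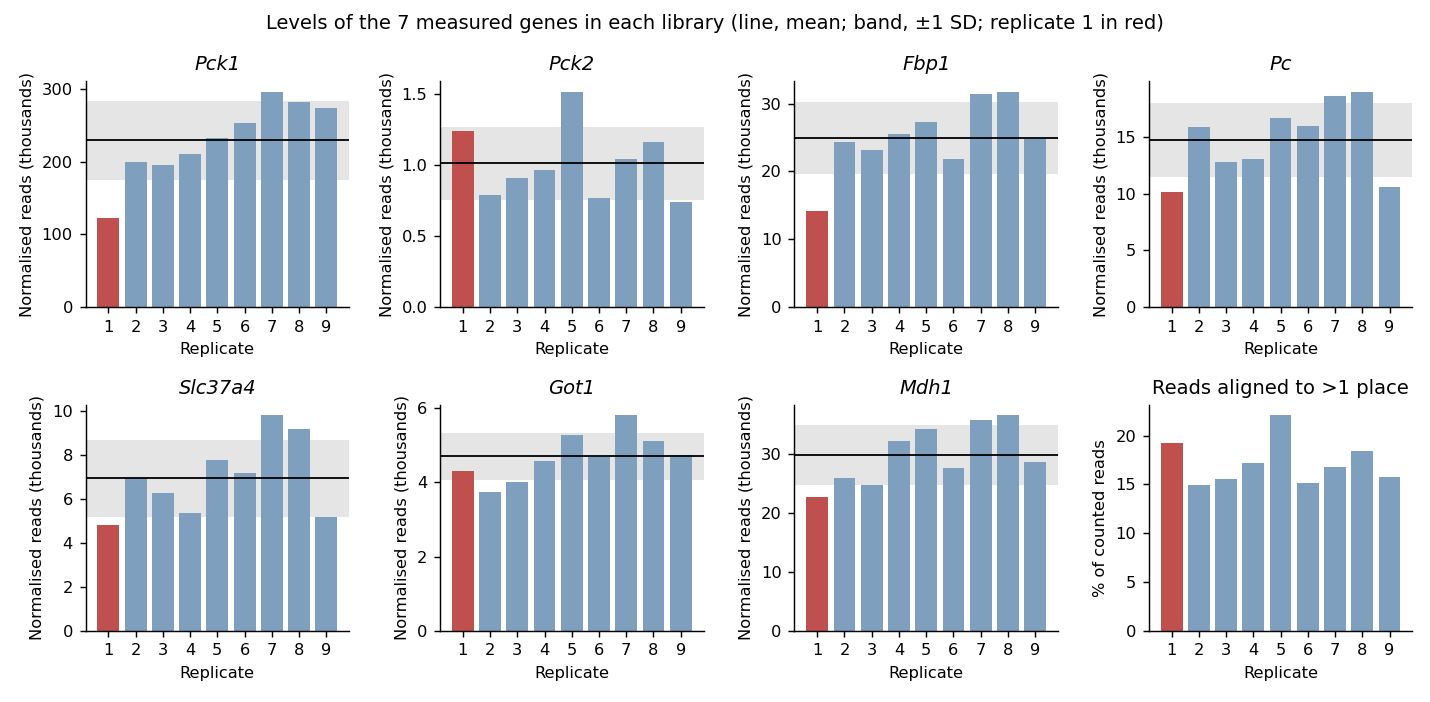
Bars give the level of each measured gene in normalised reads (vertical axis, scaled as its label states) by replicate (horizontal axis), with the mean as a line and ±1 SD as a band; the last panel gives the multi-aligned share in percent. Replicate 1, in red, is the lowest library for 5 of the 7 genes, while Pck2 is highest in replicate 5, which also has the highest share at 22.1%.

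Pck2, the mitochondrial isoform, followed another order. Its level was 735.4 normalised reads in replicate 9, 964.1 at the median and 1514 in replicate 5, with a mean of 1012 ± 256.8 (SD, n = 9). Between 455 and 2128 reads stood behind each value. Replicate 1, lowest for Pck1, was the second highest for Pck2 at 1241, and replicate 9, high for Pck1, was the lowest. The ratio of Pck1 to Pck2 within a library therefore spanned 3.77-fold, the widest of the 5 ratios, from 98.9 in replicate 1 to 373.2 in replicate 9. Its mean was 241.5 ± 84.2 (SD, n = 9).

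Pck2 was the gene of the set that moved with the multi-aligned share. Slopes were fitted with limma as the log2 change in level per 1 SD of the share, with p-values adjusted over all genes by Benjamini-Hochberg and a threshold of 0.05. By this fit 1 of the 7 genes of the set was called, Pck2, with a slope of 0.33 (SE 0.0563, adjusted p = 0.00227). The background was large: 35.0% of the 13647 genes tested were called, 2225 (16.3%) rising and 2549 (18.7%) falling with the share, or 1481 rising and 2815 falling when every library was scaled to the same total. A share of 1 in 7 was below that background, so the count says nothing particular about the set. Ordered by p, Pck2 stood at 315 of 13647 genes, and at 72 among the 7144 with a positive slope. Leaving out each replicate in turn kept its slope between 0.26 and 0.36, with adjusted p from 0.00135 to 0.0262. Without replicate 5 the number of genes called fell to 1744.

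Across the 9 libraries, Pck2 and the share had a Pearson r of 0.948 (exact permutation p = 0.000138, two-sided, 0.000827 after Benjamini-Hochberg adjustment over the 6 relations tested). Spearman's rho was 0.867 (exact permutation p = 0.00451, adjusted 0.0271). Without replicates 5 and 1, the libraries farthest from the median share, r was 0.877. The r of Pck1 with the share was -0.187 (exact permutation p = 0.605, adjusted 0.723), its rho 0.0333 (exact permutation p = 0.948, adjusted 0.948), and its r 0.458 without those libraries. The 6 relations are a part of those between the genes of the set and the share, Pck1 or the tubule markers. They include the highest r with each, and adjustment over 6 does not cover that choice. The slopes on the share of the 5 genes other than Pck1 and Pck2 were 0.09 for Got1 and Mdh1, 0.04 for Slc37a4, 0.03 for Pc and -0.0064 for Fbp1, with limma adjusted p from 0.326 to 0.968. Of 7 immune markers tested, 4 were called on the share in limma, beside the background of 35.0%. C1qa, C1qb and C1qc, subunits of the same complement complex, rose, Ptprc, the general leukocyte marker, fell, and Cd68, Lyz2 and Csf1r were not called. The summed level of the 7 ran from 6225 normalised reads in replicate 3 to 9244 in replicate 5. Replicate 5, highest for Pck2 and for the share, also had the lowest percent of reads outside genes, 22.0% against 27.2% to 31.3% in the others, and the highest percent of reads in more than 1 gene, 0.129% against 0.0910% to 0.117%. The part of these measures in the Pck2 result was not tested.

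**Figure D2:**
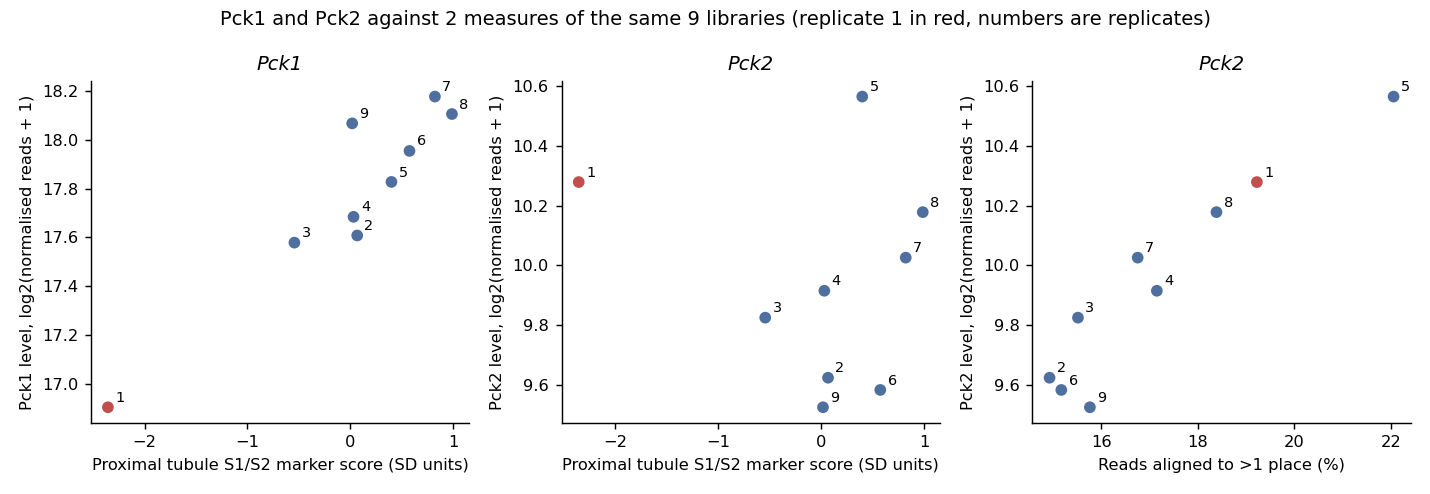
Points are the 9 libraries, numbered by replicate, with replicate 1 in red; the vertical axes give the log2 level of Pck1 or Pck2, and the horizontal axes the proximal tubule marker score in SD units or the multi-aligned share in percent. Pck1 lies along the marker score (r = 0.937) and Pck2 along the share (r = 0.948), while Pck2 and the marker score show r = -0.148.

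The cytosolic shuttle enzymes varied less. Got1, the aspartate aminotransferase, ranged from 3740 normalised reads in replicate 2 through a median of 4687 to 5798 in replicate 7, a mean of 4694 ± 640.0 (SD, n = 9) and the narrowest span of the 7 at 1.55-fold. Mdh1, the malate dehydrogenase, ranged from 22698 in replicate 1 through a median of 28671 to 36514 in replicate 8, a mean of 29827 ± 5033 (SD, n = 9) and a span of 1.61-fold. Replicate 1 was lowest for Mdh1 but not for Got1. Set against their mitochondrial partners in the same library, Got1 held a steadier proportion than Mdh1. The ratio of Got1 to Got2 ran from 0.294 to 0.387 (mean 0.331 ± 0.0336, SD, n = 9), and that of Mdh1 to Mdh2 from 1.86 in replicate 1 to 3.09 in replicate 3 (mean 2.37 ± 0.406, SD, n = 9).

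No gene of the set passed the test for more spread between libraries than genes of like level. In limma's comparison of each gene's variance with the trend on level, 0 of 13647 genes were called (0.0%), while 573 had an unadjusted p under 0.05, and the smallest adjusted p was 0.957. The ratio of variance to trend was 1.89 for Pck2, 1.86 for Slc37a4, 1.56 for Pck1, 1.51 for Fbp1 and 1.48 for Pc. Mdh1 at 0.754 and Got1 at 0.582 lay below the trend. Ranked by this ratio over all genes, the set ran from percentile 23.7 for Got1 to 72.5 for Pck2. Slc16a1, a lactate transporter described below, was not called even at a ratio of 22.3 (adjusted p = 0.957 in limma). Not passing this test therefore says little about the set.

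Described without a test, the 15 pairs among Pck1, Fbp1, Pc, Slc37a4, Got1 and Mdh1 had Pearson r of log2 levels from 0.479 to 0.955, with a median of 0.711 over 9 libraries that share the same scaling. The 6 pairs that include Pck2 ran from -0.234 to 0.443 with a median of 0.228. With every library scaled to the same total the 15 pairs ran from 0.139, for Fbp1 with Got1, to 0.936, and Pck1 with Pck2 stood at -0.591. The gap narrowed without replicate 1, when the medians were 0.604 for pairs without Pck2 and 0.553 for pairs with it. Pc and Slc37a4 were the closest pair at r = 0.955, and 0.941 without replicate 1. Fbp1 with Mdh1 (0.869 and 0.885) and Got1 with Mdh1 (0.819 and 0.869) likewise did not rest on that library. Pck1 with Fbp1 did in part, at 0.882 with replicate 1 and 0.604 without it, while Pck1 with Got1 went the other way, 0.627 and 0.819.

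**Figure D3:**
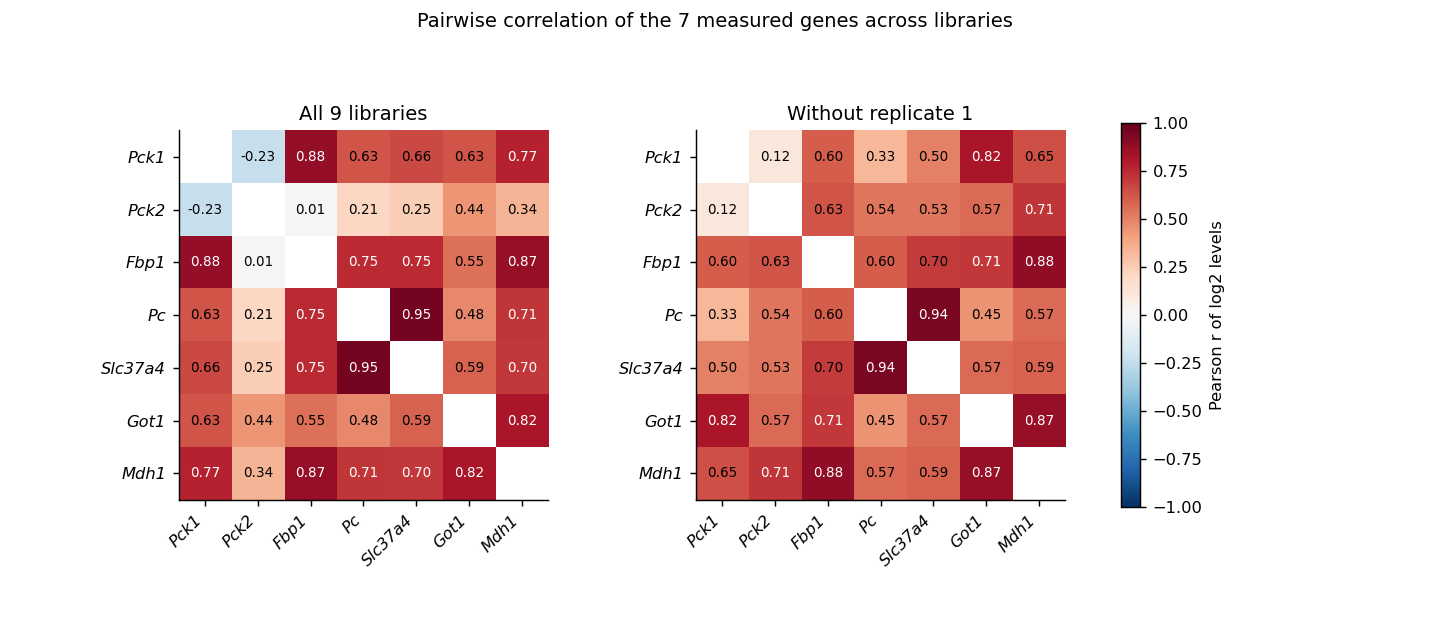
Each cell gives the Pearson r of log2 levels between a pair of measured genes (rows and columns), over all 9 libraries on the left and without replicate 1 on the right, on a colour scale from -1 to 1. Pc with Slc37a4 stays at 0.95 and 0.94, while the Pck2 row is pale on the left (-0.23 to 0.44) and darker on the right (0.12 to 0.71).

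The r with the S1 and S2 marker score was 0.937 for Pck1 (exact permutation p = 0.00140, two-sided, adjusted 0.00421) and 0.921 for Fbp1 (exact permutation p = 0.00310, adjusted 0.00619). Spearman's rho was 0.800 for Pck1 (exact permutation p = 0.0138, adjusted 0.0415) and 0.700 for Fbp1 (exact permutation p = 0.0433, adjusted 0.0649). Replicate 1 had the lowest score, -2.36. Without replicates 1 and 8, r was 0.737 for Pck1 and 0.537 for Fbp1. With all 9 libraries these were the highest r of the 7 genes, but the order changed when the score was recomputed without replicate 1. Pck1 then had 0.805, while Fbp1 with 0.548 lay below Pc (0.674), Slc37a4 (0.663), Got1 (0.641) and Mdh1 (0.637). Pck2 had an r of -0.148 with the score (exact permutation p = 0.723, adjusted 0.723), a rho of 0.133 (exact permutation p = 0.744, adjusted 0.892) and an r of 0.259 without those libraries.

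Fitted over all genes with limma, the slope on the marker score was 0.37 (SE 0.0619, adjusted p = 0.191) for Pck1 and 0.32 (SE 0.0645, adjusted p = 0.199) for Fbp1. It was 0.28 for Slc37a4, 0.27 for Pc, 0.20 for Mdh1, 0.10 for Got1 and -0.05 for Pck2. Without replicate 1 it was 0.19 for Pck1 and 0.11 for Fbp1, with limma adjusted p of 0.527 and 0.602. Of 13638 genes, 0 passed the threshold in limma (0.0%) and 0 in edgeR, with 817 (5.99%) at an unadjusted p under 0.05 in limma, 5 of the 7 genes of the set among them. DESeq2 on the recovered reads called 141 genes (1.03%), Pck1 (adjusted p = 0.000152) and Fbp1 (adjusted p = 0.000425) included. Without replicate 1, 1288 of 13626 genes met the unadjusted threshold in limma. Of the set, Pck1, Slc37a4 and Pc were among those genes, and Fbp1, Mdh1, Got1 and Pck2 were not.

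Taken relative to the mean log2 level of the markers in the same library, a measure added after the data were seen, Pck1 varied with an SD of 0.13 on the log2 scale, against 0.39 for its own level. Replicate 1, at 3.77, then fell inside the range of the other libraries, 3.54 to 4.00. The SD of Fbp1 was likewise 0.15 against 0.35. Without replicate 1 the contrast was smaller, with relative SDs of 0.14 for Pck1 and 0.16 for Fbp1 against 0.23 and 0.19 for their own levels. Pck2 had a relative SD of 0.56 against 0.35 for its own level, and Got1 0.32 against 0.20. That widening was absent without replicate 1, when the relative and own SDs were 0.35 and 0.35 for Pck2 and 0.15 and 0.21 for Got1. Relative to the markers, replicate 1 was the highest library for the 6 genes other than Pck1. The part of tubule content in any of these levels was not tested.

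Across libraries, the other genes of the set were set against Pck1 itself. The limma slope per 1 SD of Pck1, which is 0.39 on the log2 scale, was 0.30 for Fbp1 (SE 0.0714, adjusted p = 0.294), 0.24 for Slc37a4, 0.21 for Pc, 0.19 for Mdh1 and 0.12 for Got1. Pck2 had a slope of -0.08 (SE 0.116, adjusted p = 1.00). No gene of 13646 passed in limma (0 called, 0.0%) or in edgeR (0), with 888 (6.51%) at an unadjusted p under 0.05 in limma, among them 4 of the 6. DESeq2 on the recovered reads called 118 genes (0.865%), of which Fbp1 was 1 (adjusted p = 0.00720). With the multi-aligned share as a covariate limma called 113 genes (0.828%), and Fbp1 stood just outside the threshold (adjusted p = 0.0511). Without replicate 1 the slopes were 0.12 for Fbp1, 0.17 for Slc37a4, 0.097 for Pc, 0.14 for Mdh1, 0.17 for Got1 and 0.040 for Pck2. With the marker score as a covariate they were 0.053 for Fbp1 (SE 0.196), -0.16 for Slc37a4 (SE 0.259) and -0.36 for Pc (SE 0.207). Those of Mdh1, Got1 and Pck2 were 0.035 (SE 0.203), 0.21 (SE 0.210) and -0.27 (SE 0.346). None was called in either fit. Pck1 and the score had r = 0.937, so the covariate fit hardly separates them. Without the covariate the SE was 0.0968 for Slc37a4 and 0.0941 for Pc. For Fbp1 and Pck1, r was 0.882 (exact permutation p = 0.00673, adjusted 0.0101) and rho 0.733 (exact permutation p = 0.0311, adjusted 0.0622). That r was 0.443 without replicates 1 and 7.

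The wider pathway was read from 6 lists of genes around the set, 79 in all, of which 65 were in the table and 63 were tested. Against Pck1 and against the marker score, 0 of the 63 were called by limma (background 0.0% in both). Against the multi-aligned share 24 were called, 10 rising and 14 falling, which is 38.1% beside the background of 35.0%. The lists below are described by those counts and by their median slopes, beside medians over all genes of 0.0012 for Pck1 and 0.02 for the share. The genes named are the most abundant and the most variable of each list, and called genes outside that rule were named after their values were seen. Calls of listed genes on the share are from all 9 libraries. Over all genes such calls numbered 4774, and 1744 without replicate 5, which had the highest share. Calls of the listed genes without replicate 5 are not reported here.

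Of the 6 enzymes that gluconeogenesis shares with glycolysis, 5 had a positive slope on Pck1, with a median of 0.21. On the share 0 of the 6 were called, beside the background of 35.0%. Gpi, the glucose-6-phosphate isomerase, averaged 14723 ± 3219 and Eno1, an enolase, 21567 ± 7626 (SD, n = 9). Of 10 glycolytic genes that oppose the pathway, 7 had a negative slope on Pck1, with a median of -0.01. On the share 2 of the 10 rose and 2 fell in limma (background 35.0% called). Pfkl (0.27, adjusted p = 0.00655) and Pkm (0.22, adjusted p = 0.0325), which encode phosphofructokinase and pyruvate kinase, rose. Pfkfb2 and Pfkfb3, enzymes that set fructose-2,6-bisphosphate, both fell by 0.40 per SD in limma. Hk1, a hexokinase, was highest in replicate 1 at 3888 and lay between 2389 and 3198 in the others.

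Among 9 genes of ammonia and glutamine handling, 3 rose and 1 fell with the share (background 35.0% called), and 6 had a negative slope on Pck1. Glul, glutamine synthetase, which takes ammonia up, ranged from 28387 normalised reads in replicate 9 to 46083 in replicate 2 and averaged 34300.4 ± 5731 (SD, n = 9). Its r with Pck1 was -0.0366, given without a test. Slc38a3, the glutamine transporter of the basolateral proximal tubule, ranged from 1608 in replicate 3 to 6079.7 in replicate 5. The ammonia channels of the distal nephron were highest where collecting duct markers were highest. Rhcg had 8010.5 normalised reads in replicate 1 and 3332 to 6004 in the others, and Rhbg 1912 in replicate 1 and 592.3 to 1570 in the others. Both rose with the share, with slopes of 0.33 (adjusted p = 0.0143) and 0.42 (adjusted p = 0.0233) in limma. The 5 collecting duct markers had a median slope on the share of 0.17, with 0 of 5 called, and their part in these slopes was not tested. Gls2, a glutaminase, also rose (0.31, adjusted p = 0.0243), and Slc9a3, the apical sodium-proton exchanger, fell (-0.32, adjusted p = 0.0192).

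Of 12 mitochondrial carriers and citric acid cycle genes, 11 had a positive slope on Pck1, with a median of 0.10. On the share, 2 rose and 2 fell (background 35.0% called). Suclg1, a succinyl-CoA ligase subunit, ranged from 15579 normalised reads in replicate 1 to 30712 in replicate 8, and Sdha, a succinate dehydrogenase subunit, only from 19319 to 27084. Slc25a10, the dicarboxylate carrier that exchanges malate for phosphate, ranged from 7461 in replicate 9 to 17453 in replicate 8. The library lowest for it was thus replicate 9, which was also low for Pc and Slc37a4. Of 7 genes of substrate entry, 5 had a positive slope on Pck1. Slc16a1, the monocarboxylate transporter that moves lactate, had the widest span of any gene named, from 719.8 normalised reads in replicate 1 through a median of 4206 to 9251 in replicate 9. Its slope on Pck1 was 0.93 (adjusted p = 0.352 in limma and 0.00557 in DESeq2), and 0.40 without replicate 1. On the share 1 of the 7 rose and 2 fell in limma, beside the background of 35.0% called. Khk, which phosphorylates fructose, rose (0.33, adjusted p = 0.00899). Gk, which phosphorylates glycerol, fell by 0.41 per SD (adjusted p = 0.00457), and Gpd2, the mitochondrial glycerol-3-phosphate dehydrogenase, fell by 0.49 (adjusted p = 0.0357).

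**Figure D4:**
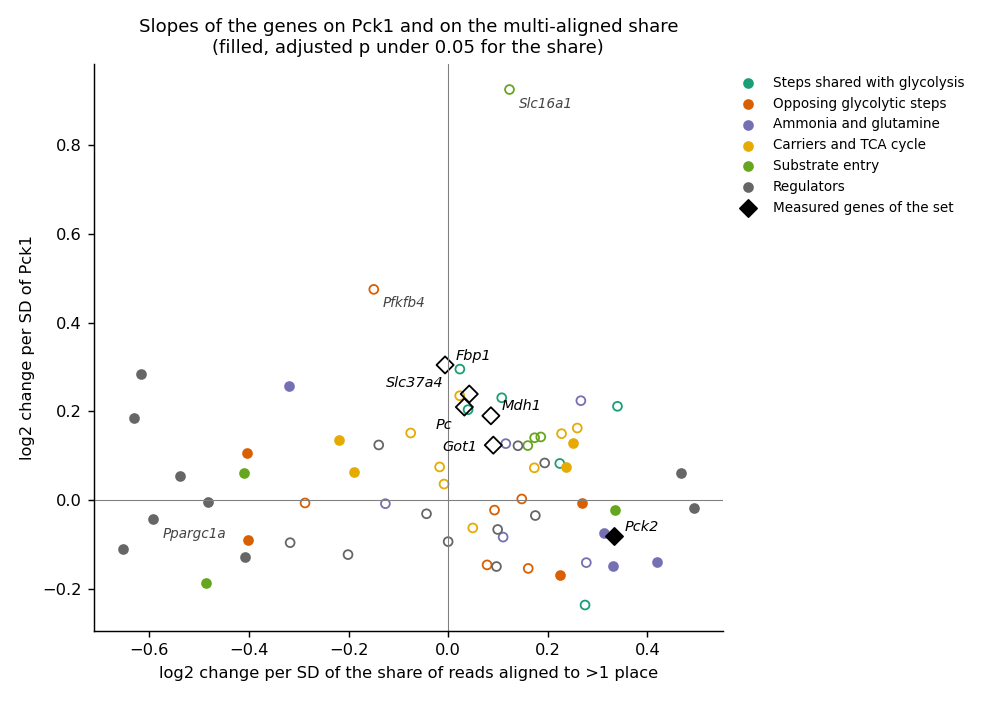
Each point is a gene, with the limma slope on the multi-aligned share on the horizontal axis and the slope on Pck1 on the vertical axis, both as log2 change per 1 SD; diamonds are the measured genes of the set other than Pck1, circles the 63 genes of the pathway lists, and filled symbols passed the threshold for the share. Pck2 is the filled diamond at 0.33, while Fbp1 and the other diamonds lie between 0.12 and 0.30 on the Pck1 axis.

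Of 19 regulators tested, 2 rose and 7 fell with the share, with a median slope of -0.14. Over all genes tested, 16.3% rose and 18.7% fell. Their median slope on Pck1 was -0.03, and limma called 0 of them on it. Foxo1, the forkhead factor that insulin restrains, ranged from 168.4 normalised reads in replicate 5 to 749.2 in replicate 6 and fell by 0.65 per SD of the share (adjusted p = 0.00311). Creb1, which binds cAMP response elements, fell by 0.63 (adjusted p = 0.00434). Ppargc1a, a coactivator of the Pck1 promoter in liver, ranged from 371.1 in replicate 5 to 1431 in replicate 9, fell by 0.59 with the share (adjusted p = 0.00665 in limma) and had an r of -0.0589 with Pck1, given without a test. Foxo3, Ppara, Insr and Irs1 also fell, and Esrra and Nr0b2 rose. Hnf4a, a nuclear receptor of proximal tubule and liver, was lowest in replicate 1 at 3736 and lay between 4998 and 6334 elsewhere. Its slope on Pck1 was 0.12 (adjusted p = 0.944 in limma). Stat3, a transcription factor of cytokine signalling, averaged 4149.5 ± 600.5 (SD, n = 9).

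The patterns most like and most unlike Pck1 were ranked by Pearson r of log2 levels over the 9 libraries, as a description. Highest were Car3, a carbonic anhydrase, at 0.977, Lama1, a laminin chain, at 0.971, and Acsf2, an acyl-CoA synthetase, at 0.969. Agmo, which cleaves ether lipids, followed at 0.966 and Glrx, a glutaredoxin, at 0.961. Car3 had 124.4 normalised reads in replicate 1 and 213.0 to 412.8 in the others. Without replicate 1 these r lay between 0.888 for Agmo and 0.952 for Car3. Lowest were Hpcal4, a neuronal-type calcium sensor, at -0.979, Osbp2, an oxysterol-binding protein, at -0.913, and Irx2, a homeobox factor, at -0.911. Txnip, the thioredoxin-interacting protein whose transcription glucose induces, and Stk32b, a kinase, both reached -0.909. Txnip had 20139 normalised reads in replicate 1 and 7895 to 13789 in the others, and its r was -0.735 without replicate 1. Against the mean standardised level of the 7 genes of the set, the closest were Nme4, a mitochondrial nucleoside diphosphate kinase, at 0.988, Fam151a at 0.971, Galm, a galactose mutarotase, at 0.968, and Slc13a3, the dicarboxylate transporter that is also 1 of the 9 tubule markers, at 0.967. A row whose name reads as a date stood among them and is assigned to no gene.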

How the data were processed

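Kidney cortex had been flash frozen, RNA isolated with the RNeasy mini kit and stranded mRNA libraries made with a TruSeq NeoPrep kit, per the labels' protocols. FastQC 0.11.2, MultiQC 0.9, HTSeq 0.6.1p1, DESeq2 and build Rnor_5.0 are named in the submitters' processing notes; no aligner is given in the sources used here. In the deposited table each value is a signal, the read count of a gene after the authors divided it by the size factor of its library. Whole reads were recovered from low values, with 99.988% to 99.994% of values above 0 falling no more than 0.1 read from a whole number, and size factors averaged 1.19 ± 0.415 (SD, n = 9). The 3 rows that name no gene were left out of tests and used for the multi-aligned share, the percent of counted reads aligned to more than 1 place as the authors deposited them; reads outside genes made 28.9% ± 2.93.

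Values were analysed as log2(value + 1) for genes with a mean of at least 10, with limma 3.58.1 in R 4.3.3 and a robust trend; fold changes on this scale understate those of low genes. Slopes were taken on the standardised log2 level of Pck1, the mean standardised marker level and the share, with Benjamini-Hochberg adjustment over all genes. The fits were tested on simulated data with independent genes, where planted slopes were larger than those of the set. Recovery of slopes as small as those of the set was not tested. Alternatives were edgeR 4.0.16 and DESeq2 1.42.0 on recovered reads, pseudocounts of 0.5 and 5, no filter or a mean of at least 100, TMM or same-total scaling, covariates, and leaving out each replicate. Other genes were named by rule: the 5 highest and 5 lowest r with Pck1, the 5 highest with the set's mean (those with Glud1 could not be ranked), and the 3 most abundant and 2 most variable of each pathway list, leaving out rows with only an identifier; some genes that this rule names are not reported here. The members and lists were chosen with earlier results of these data known. Correlations across libraries used exact permutation of all orders, two-sided, for 6 relations picked from those possible, and their adjustment covers those 6 only.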

Additional observations from a re-analysis of the deposited data

Results flagged for a closer look

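Of 54 levels and scores checked on the log2 scale, 7 had a lowest library set apart from the rest by a gap that exceeded Dixon's 95% critical value of 0.493 for 9 samples, as a share of the whole range. Chance flags about 1 in 20. All 7 gaps lay at replicate 1. Among the genes of the set, the gap was 0.530 of the range for Pck1 and 0.540 for Fbp1. For the proximal tubule marker score it was 0.542, and for the regulator Hnf4a 0.551. Among genes ranked for likeness to Pck1 it was 0.576 for Lama1, 0.537 for Acsf2 and 0.519 for Agmo, which were picked for following Pck1 and so repeat its pattern. Pc, Slc37a4, Got1, Mdh1 and Pck2 had no such gap.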

How the results depend on the processing

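No paired analysis was possible because there was 1 group of libraries. Slopes on Glud1 and the ratio of Glud1 to Glul were not run, since Glud1 had no matched row. Against Pck1, 0 genes were called in limma, but 118 with DESeq2 and 113 with the multi-aligned share as a covariate; against the marker score, 0 and 141 with DESeq2. Against the share, 4774 genes were called, and 1744 to 4977 when each replicate was left out, the lowest without replicate 5. The causes were not tested.

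Several slopes that were never called changed sign. With the marker score as a covariate, the slopes on Pck1 were -0.16 (SE 0.259) for Slc37a4 and -0.36 (SE 0.207) for Pc. Pck1 and the score had r = 0.937, so that fit hardly separates them. Slopes of Pck2 ran from -0.12 to 0.040 on Pck1 and from -0.089 to 0.037 on the marker score when each replicate was left out, positive without replicate 1. On the share, the same ranges were -0.030 to 0.11 for Slc37a4, -0.091 to 0.10 for Fbp1, -0.049 to 0.11 for Pc and -0.15 to 0.035 for Pck1. The slope of Fbp1 on the share was 0.011 in edgeR, 0.0095 in DESeq2 and 0.036 with the marker score as a covariate, the last added after the data were seen, and that of Pc -0.0079 with equal library totals. Without replicate 1, the log2 span of levels was 0.60 for Pck1 and 0.54 for Fbp1. The call of Pck2 on the share held under every alternative run, with slopes of 0.29 to 0.33 outside the left-out replicates. For Pck2, the fewest reads behind any value were 455, which bounds its counting error.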

Other observations

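Pfkfb4, an enzyme that sets the level of fructose-2,6-bisphosphate and so the balance between Fbp1 and phosphofructokinase, had a slope on Pck1 of 0.47 (SE 0.0847, adjusted p = 0.151 in limma), and was singled out after its values were seen. It had 87.4 normalised reads in replicate 1, a median of 180.2 and 288.8 in replicate 8. Its r with Pck1 was 0.952 over the 9 libraries and 0.846 without replicate 1, given without a test. DESeq2 called it with an adjusted p of 8.49e-05, and limma with the multi-aligned share as a covariate with an adjusted p of 0.0275. The slope was 0.25 (SE 0.0910) without replicate 1 and 0.27 (SE 0.247) with the marker score as a covariate, with limma adjusted p of 0.854 and 1.00. Over all alternatives run, adjusted p ranged from 8.49e-05 to 1.00. Pgam1, a phosphoglycerate mutase, was called with the share as a covariate (slope 0.26, adjusted p = 0.0324 in limma), and had 8485 normalised reads in replicate 1 and up to 14714 in replicate 5.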
